A study of Danio rerio with 8 samples.

Results

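Whole ovaries of zebrafish fed 100 ppb TCDD were compared with whole ovaries of zebrafish fed 10 ppb TCDD, which covers 4 of the 8 arrays of the series. They are all arrays whose titles carry either dose, 2 for the 100 ppb pool and 2 for the 10 ppb pool. Each pool mixed total RNA from the ovaries of 5 adult females of the AB strain, 3 µg from each fish, so 10 fish stand behind the comparison. The females were 6 to 8 months old and ate trout chow for 15 days. In both groups the chow carried tritium-labelled TCDD, the dioxin 2,3,7,8-tetrachlorodibenzo-p-dioxin, at 100 or at 10 ng per g (ppb). The other arrays came from a 40 ppb pool and from a 0 ppb pool whose chow had received acetone alone, and they are used here to show which pool of the pair stood apart. The 2 arrays of a dose are technical replicates of 1 pool. The test therefore compared these pools against the spread between arrays, and it holds no information on variation between fish. With each pool taken as 1 sample there is no test.

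TCDD is the most studied ligand of the aryl hydrocarbon receptor (AHR), a transcription factor that pairs with ARNT and switches on genes such as cyp1a. In fish the isoform that carries most TCDD toxicity is ahr2. The ovary holds oocytes, the steroid-making follicle cells around them, and stroma with vessels and immune cells. Oocytes fill with yolk made from vitellogenins, which the liver secretes into the blood under estrogen. The liver also secretes most of the transport, clotting and complement proteins of plasma, and in zebrafish it lies beside the ovary, with exocrine pancreas scattered around the gut.

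Values are normalised log2 intensities, and a difference is the 100 ppb mean minus the 10 ppb mean on that scale. The pseudocount of 16 makes it understate changes of dim probe sets. After normalisation the 100 ppb arrays correlated with each other at r = 0.991 and the 10 ppb arrays at r = 0.981, over 15502 probe sets. These are not independent of each other. Arrays of different pools correlated at r = 0.972 to 0.979. The arrays of 1 pool differed by at least 1 (log2) in 13 of 9301 tested probe sets for the 100 ppb pool and in 190 (2.04%) for the 10 ppb pool. Replicate 1 was the higher array in 148 of those 190. Replicate 1 of the 10 ppb pool was scanned alone on its day. Replicate 1 of the 100 ppb pool was scanned on another day, with replicates 1 of the 0 and 40 ppb pools. Replicates 2 of all 4 pools shared a further scan day. The ratio of 3′ to 5′ control probes for gapdh was 0.949 and 1.06 on the 100 ppb arrays, and 1.22 and 1.52 on the 10 ppb arrays. For the actin control it was 0.429 and 1.56 on the 100 ppb arrays, and 1.06 and 0.648 on the 10 ppb arrays, which did not separate the pools. The part of the scan day and of these ratios in the results was not tested.

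Of the 9301 probe sets, 148 passed (1.59%), which means an adjusted p under 0.05 and a difference of at least 1 in size. Lower at 100 ppb were 100 of them (1.08%), by a median of -2.09 and by -4.89 at most. Higher at 100 ppb were 48 (0.516%), by a median of 1.42 and by 2.91 at most. The median over all tested probe sets was 0.02. Of the passing probe sets 32.4% were higher, while in the deposited scaling, which moves the median of all probe sets to 0.28, 61 passed (0.656%) and 18% of those were higher. Between the arrays that shared a day, 92 of the 100 lower and 46 of the 48 higher probe sets differed by at least 1 in the same direction. These arrays also took part in choosing the 148, so this does not test the calls. Over all 9301 probe sets, 142 were lower and 115 higher by at least 1 between the same arrays. With scan day as a block 236 passed, of which 103 were higher. That fit takes the 10 ppb level from replicate 2 alone, since replicate 1 was the only array of its day. The plot of difference against level shows that the lower group reached the larger differences.

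**Figure D1:**
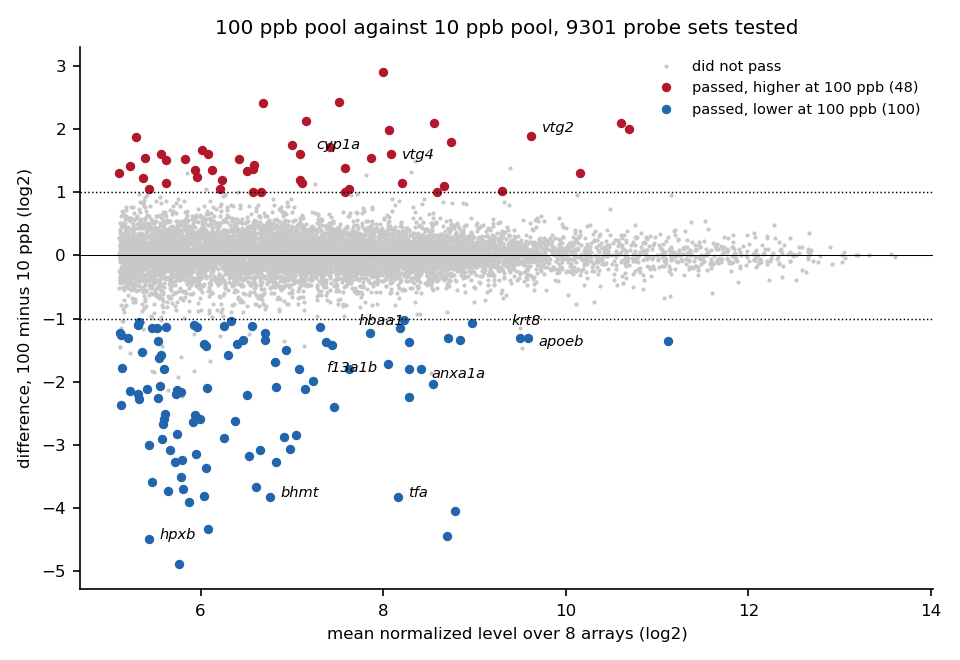
Difference between the 100 ppb and the 10 ppb pool (log2, vertical axis) against the mean normalised level over 8 arrays (log2, horizontal axis), 1 point a probe set. Red points passed and were higher at 100 ppb (48), blue points passed and were lower (100), grey points did not pass, and dotted lines mark a difference of 1 in size. The genes tfa, bhmt and hpxb lie near -4, while cyp1a and the vitellogenins lie between 1 and 2.

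The level in the other pools divided the passing probe sets into different kinds. Among the 100 that were lower, 54 had both 10 ppb arrays above the 6 other arrays, with the 100 ppb arrays not both below the others. Another 36 had both 100 ppb arrays below the 6 others with the 10 ppb arrays inside their range, 9 had both pools at opposite ends, and 1 had neither. Over all tested probe sets, both 10 ppb arrays lay above the 6 others in 4.72%, and both 100 ppb arrays lay below the 6 others in 9.16%. Among the 48 that were higher, the 10 ppb arrays alone stood apart, as the lowest, in 18, the 100 ppb arrays alone, as the highest, in 10, and both in 19. Over all probe sets both 10 ppb arrays were the lowest in 6.29% and both 100 ppb arrays the highest in 10.3%. Since a large difference between the pools favours such positions, these counts describe the passing probe sets and do not test them.

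The AHR pathway was led by cyp1a, the monooxygenase gene that serves as the classical marker of AHR activity. Its level was 9.48 and 9.49 at 100 ppb, against 8.60 and 7.27 at 10 ppb. Both 100 ppb arrays stood above all others, since the 0 ppb arrays had 5.37 and 5.53 and the 40 ppb arrays had 8.75 and 8.41. The difference of 1.55 ± 0.32 (SE, n = 2 arrays a pool) was a 2.93-fold higher level (adjusted p = 0.028, limma). The 10 ppb arrays were 1.32 apart, so the size rests on them: the difference was 2.22 between the arrays that shared a day, 2.21 without their replicate 1 and 0.89 without their replicate 2, and the call ended without any single array other than replicate 1 of the 10 ppb pool. In the deposited scaling cyp1a did not pass either. Among the passing probe sets cyp1a was the 1 higher probe set whose pool means ran in the order of the 4 doses. Dose order was not particular to it, since the pool means of 17 of the 100 lower probe sets fell in that order. An example is anxa1a, with 9.76, 8.92, 7.86 and 7.12 at 0, 10, 40 and 100 ppb. The share over all tested probe sets is not given here.

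Of the 6 AHR pathway genes tested, 1 rose, none fell, and the median difference was 0.21. The second largest was tiparp, an AHR target that in mammals feeds back to repress the receptor, at 7.46 and 7.38 at 100 ppb, against 6.59 and 6.47 at 10 ppb. Its difference of 0.89 had an adjusted p of 0.0144 but was under the minimum of 1. The receptor gene ahr2 had 5.61 and 5.86 at 100 ppb, against 5.28 and 5.57 at 10 ppb, and did not pass (0.30, adjusted p = 0.464). The quinone reductase gene nqo1, an AHR and NRF2 target in mammals, had 6.63 and 6.73 at 100 ppb, against 6.55 and 6.59 at 10 ppb, a difference of 0.11. Of the genes not tested for dim signal, cyp1c1 had 5.22 and 4.72 at 100 ppb, against 4.86 and 4.62 at 10 ppb.

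**Figure D2:**
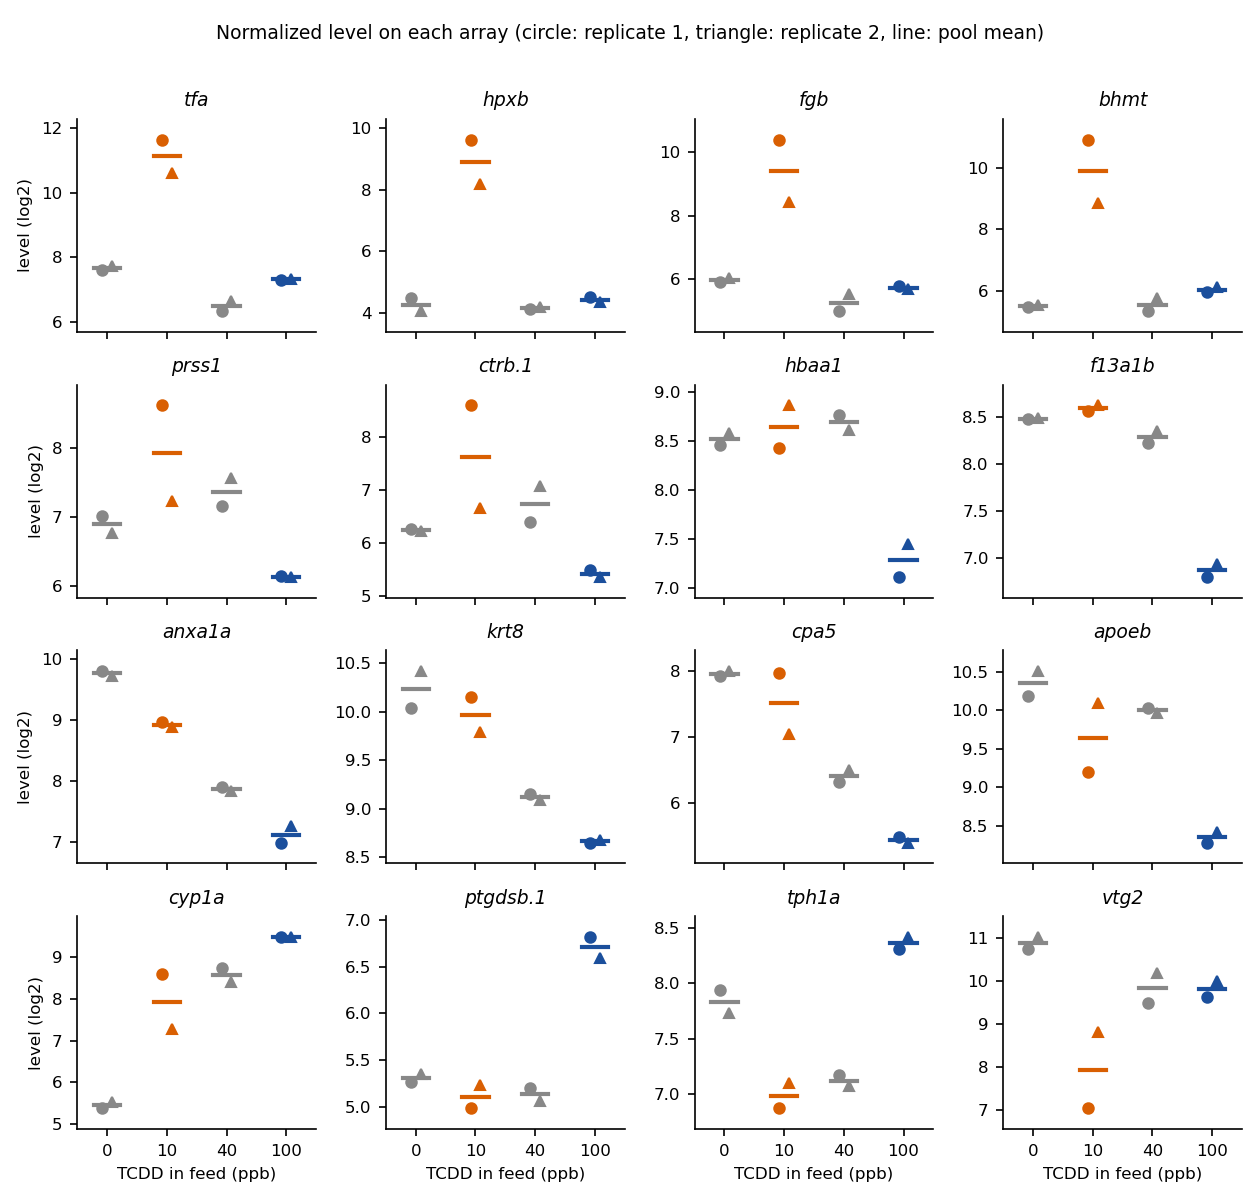
Normalised level (log2, vertical axes, each with its own range) of 16 genes on each array, by TCDD in the feed (ppb, horizontal axes). Circles are replicate 1, triangles replicate 2 and lines pool means, with the 100 ppb pool in blue, the 10 ppb pool in orange and the others in grey. In the top row the 10 ppb arrays alone are high, in the second row and in apoeb the 100 ppb arrays are the lowest, anxa1a, krt8 and cpa5 step down from 10 to 100 ppb, cyp1a and ptgdsb.1 are highest at 100 ppb, and vtg2 is lowest at 10 ppb.

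Many of the largest differences among named genes belonged to genes of plasma proteins. The 10 ppb pool was the one apart in those described first. The transferrin gene tfa, which encodes the iron carrier of plasma, had 7.31 and 7.34 at 100 ppb, against 11.65 and 10.63 at 10 ppb. The 0 and 40 ppb arrays lay between 6.33 and 7.74, close to the 100 ppb arrays. That is a 14.1-fold lower level at 100 ppb (-3.82 ± 0.26, adjusted p = 5.98e-05). The hemopexin gene hpxb, whose product binds free heme, had 4.50 and 4.34 at 100 ppb, where it was not above the control tags, against 9.63 and 8.19 at 10 ppb. It was therefore at least 17.5-fold lower. In this whole-tissue RNA, fewer cells of a type and less RNA per cell cannot be told apart.

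Of 13 genes of plasma transport proteins and protease inhibitors, 6 fell, none rose, and the median was -1.83, against 0.02 over all probe sets. Besides tfa and hpxb these were cp, the copper-bearing ferroxidase ceruloplasmin (-3.08), serpina1l, related to alpha-1-antitrypsin (-3.06), hp, the hemoglobin scavenger haptoglobin (-2.09), and itih2, a heavy chain of an inter-alpha-trypsin inhibitor (-1.79). For cp the levels were 6.48 and 6.12 at 100 ppb, against 10.50 and 8.28 at 10 ppb. For serpina1l they were 6.75 and 6.86 at 100 ppb, against 10.84 and 8.88 at 10 ppb. Both genes were also above the 0 and 40 ppb arrays at 100 ppb, where cp did not exceed 5.58 and serpina1l did not exceed 5.87. Members of the list that did not pass included ambp, which like the others was highest at 10 ppb (-2.13, adjusted p = 0.0556), hpxa (-0.45), rbp4, the retinol carrier (0.45), and crp, an acute-phase protein (0.74, adjusted p = 0.0409). A gene dim in every other pool was tested through its 10 ppb level alone. With the filter on dim probe sets set by the 0 and 40 ppb arrays, 5 of 10 genes were lower, with a median of -1.94, against 0.774% of all probe sets lower under that filter.

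Coagulation and fibrinolysis showed the same direction in 7 of 8 genes tested, with a median of -2.70. All fibrinogen chains fell, namely fgb (-3.67), fgg (-3.27) and fga (-3.14). The beta chain fgb had 5.78 and 5.71 at 100 ppb, against 10.39 and 8.43 at 10 ppb, and the 0 and 40 ppb arrays lay between 5.00 and 6.05. Plasminogen, plg, the precursor of the fibrin-cleaving enzyme, fell in both of its probe sets (-3.58 and -3.51). Factor V, f5, fell by 2.27, with 5.07 and 4.79 at 100 ppb, against 8.08 and 6.31 at 10 ppb. The inhibitor gene tfpia was at least 2.09-fold lower, and the kininogen gene kng1 did not pass (-1.27, adjusted p = 0.0742). Of the list's passing genes, tfpia and f13a1b were the ones whose 10 ppb arrays did not differ in the way of the fibrinogens, and f13a1b is described with the genes low at 100 ppb. With the filter set by the 0 and 40 ppb arrays 4 of 5 genes were lower, with a median of -1.72.

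Complement followed, with 5 of 9 genes lower, none higher and a median of -2.14. The central component gene c3a.1 had 5.20 and 5.08 at 100 ppb, against 10.10 and 7.79 at 10 ppb, a 13.9-fold lower level (-3.80 ± 0.53, adjusted p = 0.0031). The pore-forming component gene c9 fell in all 3 of its probe sets (-3.73, -3.36 and -3.0), and the largest is at least a 12.8-fold difference. The regulator cfhl4, related to factor H, fell by 3.18, and c4b (-2.59) and the protease gene cfi (-2.14) fell too. The remaining members c7b (-0.37), c6.2 (-0.03), cfd (-0.12) and c1qc (0.11) did not pass. The list depended on which arrays set the filter: by the 0 and 40 ppb arrays 2 of 6 genes were lower, with a median of -0.25. Without replicate 1 of the 10 ppb pool 4 of 8 were lower, with a median of -1.03. In mammals c1q chains are made largely by macrophages and cfd largely by adipose tissue.

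Among 14 apolipoproteins and lipid carriers, 4 fell, none rose, and the median was -0.92. The gene apobb.1, for a structural protein of very low density lipoprotein, had 5.01 and 4.99 at 100 ppb, against 9.14 and 7.33 at 10 ppb. The difference was -3.23, and the 0 and 40 ppb arrays, between 4.84 and 5.03, lay at the 100 ppb level. The high density lipoprotein gene apoa1a (-2.59) and apoc1 (-2.24) fell, while the lipid uptake receptors vldlr (0.12) and scarb1 (-0.08) did not pass. With the filter set by the 0 and 40 ppb arrays 3 of 13 were lower, with a median of -0.24. Hepatic metabolic enzymes gave 3 lower genes of 13 and a median of -0.52. They were bhmt, which remethylates homocysteine (5.98 and 6.13 at 100 ppb, against 10.90 and 8.85 at 10 ppb), mat1a, the S-adenosylmethionine synthetase of liver (-3.27), and ucp1, a mitochondrial carrier (-3.90). With the filter set by the 0 and 40 ppb arrays 1 of 6 was lower, with a median of -0.29. The insulin-like growth factor binding protein gene igfbp1a, 1 of 27 apoptosis and stress genes, fell by 2.52, though its second probe set did not pass (-1.6, adjusted p = 0.104).

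**Figure D3:**
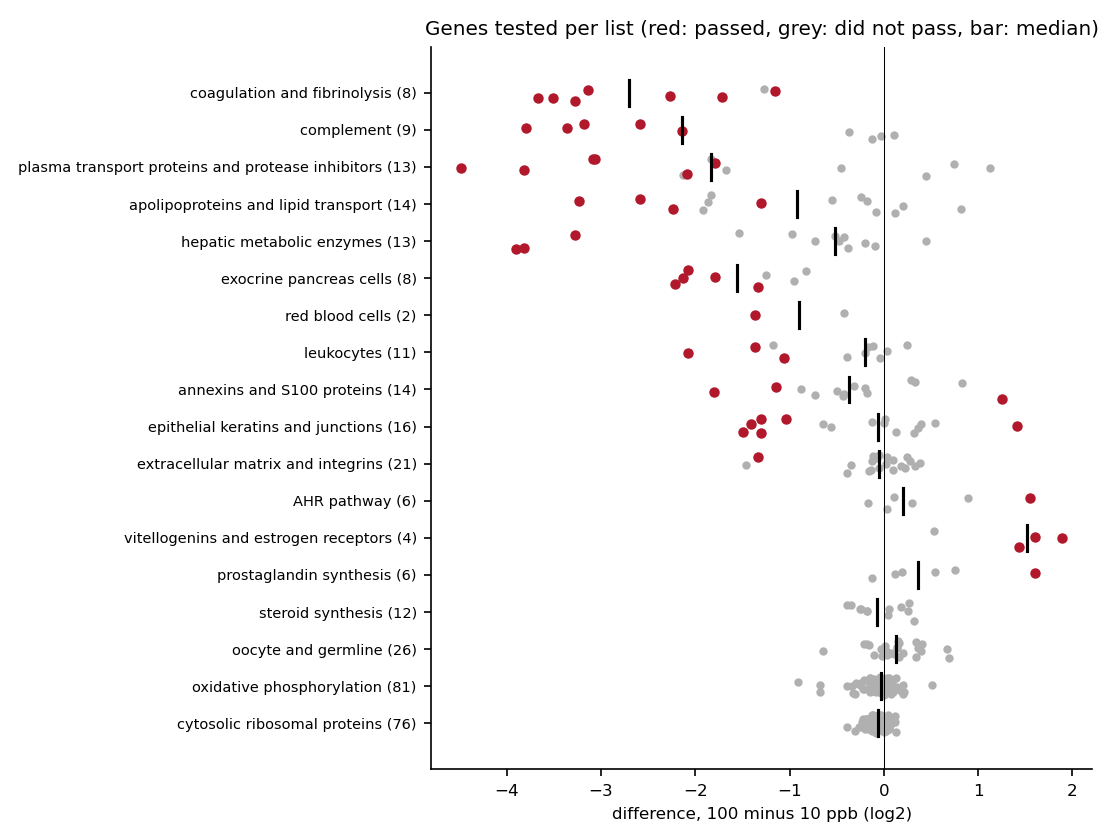
Differences between the 100 ppb and the 10 ppb pool (log2, horizontal axis) for the genes of 18 lists, with the number tested in parentheses. Red points passed, grey points did not, and black bars are medians. The coagulation list has its median at -2.70 and the vitellogenin list at 1.52, while the ribosomal list stays near 0.

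Markers of liver cells moved with all of these lists, with which they share many members. Of 26 markers on the array 22 were tested, 13 fell, 1 (vtg2) rose and the median was -3.07, or -2.01 between the arrays that shared a day. Their summed intensity was 1880 and 2155 on the 100 ppb arrays, against 18098 and 5488 on the 10 ppb arrays. The 0 ppb arrays had 2711 and 3218 and the 40 ppb arrays 1402 and 1937, so the 10 ppb pool was the one apart. The sum includes vtg2, which moved the other way and made up a large part of it at 0, 40 and 100 ppb. Above the control tags were 20 and 21 of the 26 markers at 100 ppb, and 25 on each array at 10 ppb. The liver fatty acid binding protein gene fabp10a, a defining hepatocyte marker in zebrafish, had 6.81 and 6.97 at 100 ppb, against 7.65 and 6.49 at 10 ppb, and did not pass (-0.18, adjusted p = 0.802). The 10 ppb arrays disagreed in size: replicate 1 was the higher in 21 of the 22 markers, by a median of 1.94, while the 100 ppb arrays had a median gap of -0.01. Without replicate 1 of the 10 ppb pool 12 of 18 markers were lower, against 1.34% of all probe sets, and without its replicate 2 17 of 21 were lower, against 1.49%. With the filter on dim probe sets set by the 0 and 40 ppb arrays, 7 of 12 were lower, against 0.774%. The part of liver cells in the plasma protein results was not tested.

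Many single calls among the plasma genes rested on few arrays although no direction turned. Those of tfa, fgb, bhmt, ucp1 and apobb.1 held when each array was left out in turn. Of these, ucp1 and apobb.1 were tested only through their 10 ppb level. Their means were 5.37 and 4.94 at 0 ppb, and 4.41 and 5.02 at 40 ppb. With the filter set by the 0 and 40 ppb arrays both were too dim to be tested. So were hpxb, c3a.1, fga, mat1a and the probe sets of plg and c9. The call of hpxb held without each array outside the 10 ppb pool. With either 10 ppb array left out, hpxb was too dim to be tested. The c9 probe set at -3.73 and the plg probe set at -3.58 were too dim without replicate 1 of the 10 ppb pool. Their calls held without each other array. The calls of fga, fgg, cp, serpina1l and c4b ended without either 100 ppb array, with adjusted p up to 0.121 and differences between -1.68 (c4b) and -4.42 (fgg) over the arrays left out. The second plg probe set (-3.51) likewise lost its call without either 100 ppb array (adjusted p up to 0.123), and the c9 probe set at -3.36 lost it without replicate 1 of that pool (0.0904). Those of mat1a and igfbp1a ended without replicate 1 of the 100 ppb pool (adjusted p = 0.0578 and 0.0973), and those of c3a.1 and cfhl4 without its replicate 2 (0.0553 and 0.0674). For apoa1a and apoc1 leaving out any array outside the 10 ppb pool ended the call, with adjusted p up to 0.238. The plot of the gap between 10 ppb arrays shows the same genes at gaps of up to 2.67.

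**Figure D4:**
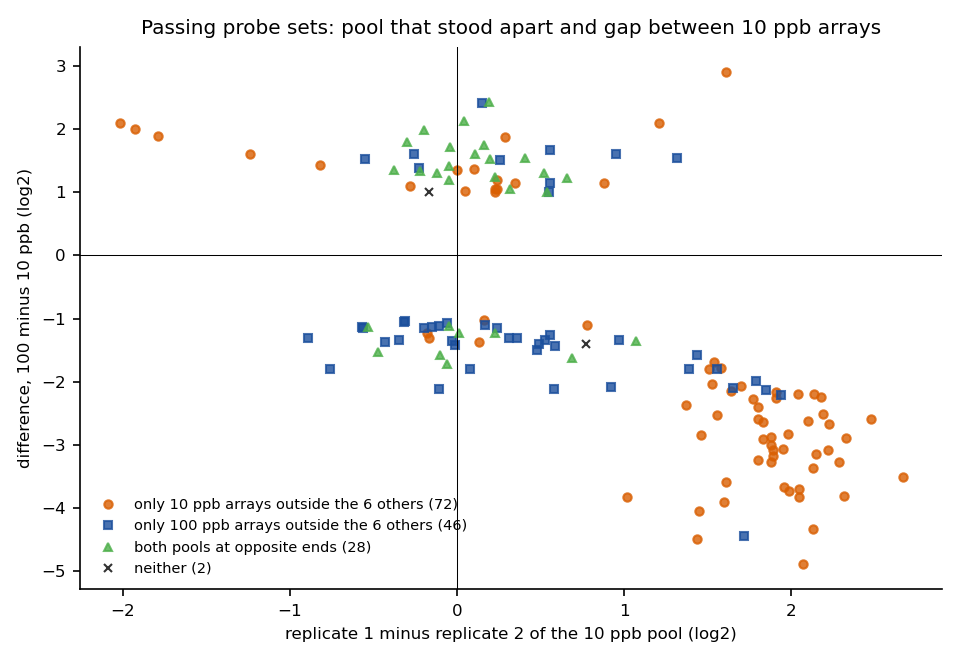
Difference between the 100 ppb and the 10 ppb pool (log2, vertical axis) against replicate 1 minus replicate 2 of the 10 ppb pool (log2, horizontal axis) for the 148 passing probe sets. Orange circles have the 10 ppb arrays alone outside the 6 others, blue squares the 100 ppb arrays alone, green triangles both and crosses neither. Most orange points below 0 lie right of 1, and replicate 1 of the 10 ppb pool was higher in 78 of the 100 lower probe sets.

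Vitellogenins are also liver products, yet 3 of them rose while 13 of the liver markers fell. Of 4 genes tested among the vitellogenins and estrogen receptors, 3 rose and the median was 1.52. The yolk precursor gene vtg2 had 9.63 and 10.01 at 100 ppb, against 7.04 and 8.83 at 10 ppb. The 0 ppb arrays were at 10.75 and 11.04 and the 40 ppb arrays at 9.49 and 10.20, so the 10 ppb pool was the lowest of 4. For vtg4 the levels were 7.86 and 8.46 at 100 ppb, against 5.93 and 7.18 at 10 ppb. For vtg3, which encodes a phosvitin-less form, they were 6.72 and 6.92 at 100 ppb, against 4.98 and 5.80 at 10 ppb. The differences were 1.89, 1.6 ± 0.34 (adjusted p = 0.0318) and 1.43 ± 0.23 (adjusted p = 0.0078) in that order of genes.

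In each vitellogenin replicate 1 of the 10 ppb pool, the array with the highest liver marker sum, was the lowest array of the series. Without that array the differences of vtg2 and vtg4 were 0.99 and 0.98 and neither passed, and the calls of both ended without any other single array except replicate 2 of the 10 ppb pool. The call of vtg3 ended without either 100 ppb array (adjusted p up to 0.115). In the deposited scaling none of the 3 passed. The estrogen receptor gene esr2a had 6.18 and 6.30 at 100 ppb, against 5.91 and 5.52 at 10 ppb, a difference of 0.53 that did not pass (adjusted p = 0.221). Too dim to be tested were esr1, at 4.61 and 4.51 at 100 ppb, against 4.58 and 4.46 at 10 ppb, and esr2b.

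Digestive enzyme genes of the exocrine pancreas were lower at 100 ppb than in every other pool. Of 8 markers tested 5 fell, none rose, and the median was -1.56. All 8 had both 100 ppb arrays below the 6 others, which held for 9.16% of all probe sets. The trypsin gene prss1 had 6.14 and 6.13 at 100 ppb, against 8.62 and 7.23 at 10 ppb, with the 0 and 40 ppb arrays between 6.77 and 7.57. The chymotrypsinogen gene ctrb.1 had 5.48 and 5.35 at 100 ppb, against 8.60 and 6.66 at 10 ppb, with the others between 6.22 and 7.07. The chymotrypsin-like gene ctrl was at least 3.93-fold lower, and the elastase gene ela2l fell by 1.33. The remaining markers were amy2a (-0.95), cpb1 (-0.82) and ela3l (-1.25), which did not pass.

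The summed intensity of 12 pancreas markers was 271 and 262 at 100 ppb, against 1874 and 675 at 10 ppb. It was 699 and 686 at 0 ppb and 602 and 822 at 40 ppb, so replicate 2 of the 10 ppb pool lay at the level of the 0 and 40 ppb pools and its replicate 1 well above them. Above the control tags were 8 and 7 of the 12 at 100 ppb, and all 12 on each 10 ppb array. Without replicate 1 of the 10 ppb pool 4 of 8 markers were lower, without its replicate 2 all 8, in the deposited scaling 1 (0.538% of all probe sets), and without a filter 3 of 12 (0.606%). The calls of ctrb.1 and ctrl ended without any array outside the 10 ppb pool (adjusted p up to 0.222), and that of prss1 without either 100 ppb array (adjusted p up to 0.172). Between the arrays that shared a day the median of the 8 was -0.94. The part of pancreas cells in these values was not tested.

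**Figure D5:**
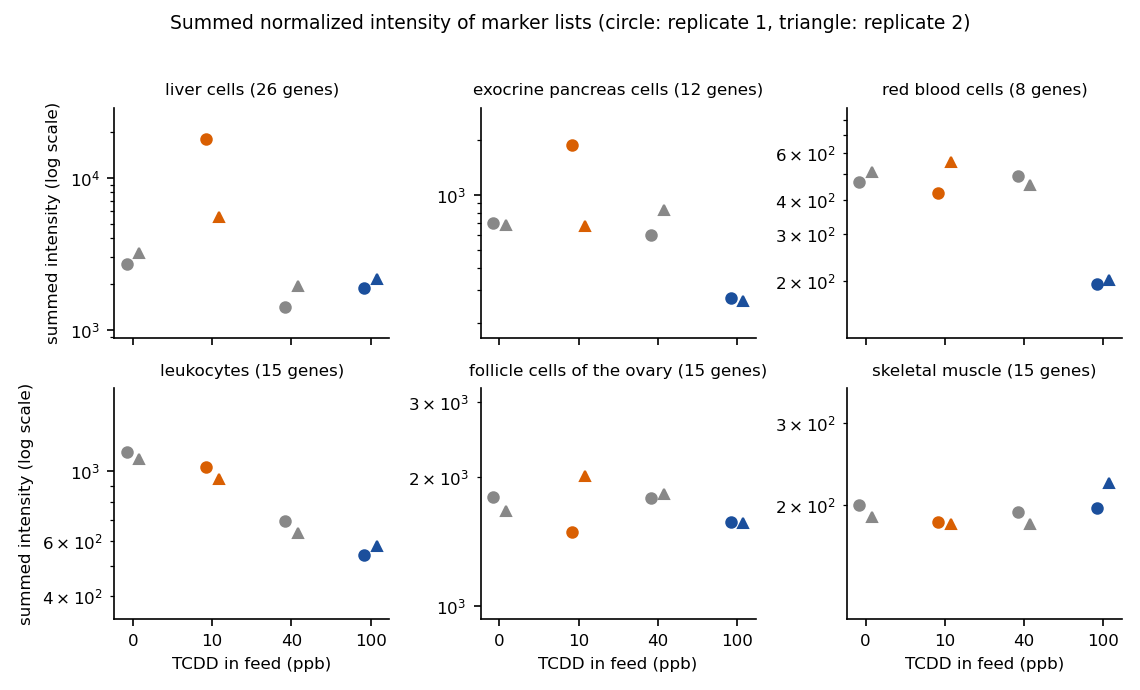
Summed normalised intensity (log scale, vertical axes, each with its own range) of the marker genes of 6 cell types on each array, by TCDD in the feed (ppb, horizontal axes). Circles are replicate 1 and triangles replicate 2, with the 100 ppb pool in blue and the 10 ppb pool in orange. Liver markers are highest at 10 ppb, pancreas and red cell markers lowest at 100 ppb, and leukocyte markers lower at 40 and 100 ppb than at 0 and 10 ppb.

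In a further set the 100 ppb arrays were the lowest, and in f13a1b and hbaa1 the 0, 10 and 40 ppb pools lay close together. The gene f13a1b, for the subunit of factor XIII that crosslinks fibrin, had 6.80 and 6.94 at 100 ppb, against 8.56 and 8.62 at 10 ppb. The 6 other arrays spanned 8.22 to 8.62, and a second probe set of f13a1b also fell (-2.12). The difference of -1.72 ± 0.12 was a 3.30-fold lower level (adjusted p = 5.98e-05), and it held without each array in turn. It was also the single thrombocyte marker tested, as itga2b, gp1bb, thbs1b and nfe2 were too dim.

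The adult alpha globin gene hbaa1 had 7.11 and 7.45 at 100 ppb, against 8.42 and 8.86 at 10 ppb, a 2.58-fold lower level (-1.37 ± 0.17, adjusted p = 0.00167). The 0 and 40 ppb arrays lay between 8.46 and 8.76. It was 1 of 2 red blood cell markers tested, and the other, the carbonic anhydrase gene ca2, had 4.93 and 4.87 at 100 ppb, against 5.38 and 5.26 at 10 ppb, without passing. The summed intensity of 8 red cell markers was 195 and 202 at 100 ppb, against 425 and 554 at 10 ppb. It was 455 to 509 on the 0 and 40 ppb arrays, but hbaa1 is in this sum and makes up most of it. The part of red cells in the level of hbaa1 was not tested.

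The lipoprotein gene apoeb, which is made by macrophages and many tissues besides liver, had 8.28 and 8.42 at 100 ppb, against 9.20 and 10.09 at 10 ppb. Unlike the other apolipoproteins that fell, it was low at 100 ppb, since the 0 and 40 ppb arrays were at 9.97 to 10.51. Its difference was -1.30 ± 0.23 (adjusted p = 0.0123), and -0.85 without replicate 2 of the 10 ppb pool, where the call ended. The thioredoxin gene txnb was the 1 of 25 oxidative stress genes that fell, with 5.09 and 5.31 at 100 ppb, against 6.93 and 6.35 at 10 ppb. Its 0 ppb arrays had 6.49 and 6.54, and the higher of its 40 ppb arrays 6.18 and the other 5.6. The fibronectin gene fn1b was the 1 of 21 extracellular matrix genes that fell, with 5.78 and 5.76 at 100 ppb, against 7.37 and 6.84 at 10 ppb, whereas fn1a did not pass (0.25). The fn1b arrays had 6.61 and 6.99 in the 0 ppb pool and 6.16 and 6.17 in the 40 ppb pool. The calls of apoeb, txnb and fn1b ended without either 100 ppb array.

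Several keratins and annexins were lowest at 100 ppb and next lowest at 40 ppb, by pool means. Of 16 keratin and junction genes tested 5 fell, 1 rose, and the median of the list was -0.06. The keratin gene krt8 had 8.65 and 8.68 at 100 ppb, against 10.15 and 9.79 at 10 ppb, with 9.15 and 9.09 at 40 ppb. The difference was -1.30 ± 0.15 (adjusted p = 0.00126). Its usual partner krt18a.1 had 8.06 and 7.70 at 100 ppb, against 9.33 and 9.03 at 10 ppb, and the paralogue krt18b fell by 1.04. Both krt4 (-1.49) and krt94 (-1.41) fell too. Junction genes of the list did not pass: cdh1, for E-cadherin, had 9.38 and 9.55 at 100 ppb, against 9.22 and 9.45 at 10 ppb, and cldnd, for a claudin, had 12.94 and 12.94 at 100 ppb, against 12.66 and 12.50 at 10 ppb.

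Annexin A1, anxa1a, a calcium-dependent membrane-binding protein, had 6.99 and 7.26 at 100 ppb, against 8.96 and 8.88 at 10 ppb. The 0 ppb arrays lay above them at 9.80 and 9.72, and the 40 ppb arrays lay between them at 7.90 and 7.83. The 3.48-fold lower level (-1.80 ± 0.12, adjusted p = 5.98e-05) was among the smallest p of the comparison. For anxa2a the levels were 7.1 and 7.41 at 100 ppb, against 8.29 and 8.49 at 10 ppb, a difference of -1.14 that was -0.98 without replicate 1 of the 100 ppb pool. Its partner gene s100a10b had 6.75 and 6.61 at 100 ppb, against 7.65 and 7.18 at 10 ppb, and did not pass (adjusted p = 0.0524). Of 14 annexin and S100 genes 2 fell, 1 rose, and the median was -0.37. In the deposited scaling none of the keratins and annexins passed, nor did f13a1b, hbaa1, apoeb, txnb or fn1b, though none of the 52 named calls changed direction. The calls of krt4, krt8, krt94 and anxa1a held without each array in turn.

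The difference of the 40 ppb pool from the 0 ppb pool uses no array of the 100 and 10 ppb pools. Its calls are still not independent of these. Both comparisons came from the same fit of all pools, with a shared variance for each probe set, normalisation and filter. The overlap of their calls is therefore a description and was not tested. For 40 against 0 ppb, 28 probe sets were lower (0.301%) and 4 higher (0.043%). The lower calls overlapped in 11 probe sets, which is 11% of the 100 and 39.3% of the 28. They were krt4, krt8, krt94, krt18b, anxa1a, anxa2a, cpa5, marco, the tetraspanin-like gene tm4sf21a, the cobalamin-binding gene tcnbb and 1 unnamed probe set. None of the liver plasma genes that the 10 ppb pool set apart was among them. Several were too dim at 0 ppb to fall by 1, so their absence was set by their level. Examples are hpxb (4.48 and 4.04 at 0 ppb) and the c9 probe set at -3.73 (4.79 and 4.89). The higher calls overlapped in cyp1a alone, with a difference of 1.55 for 100 against 10 ppb and 3.13 for 40 against 0 ppb. A further 1 of the probe sets higher at 100 than at 10 ppb, annotated to more than 1 gene, was lower at 40 than at 0 ppb. For anxa1a these differences were -1.80 and -1.90, and for krt4 -1.49 and -1.51. The tcnbb arrays at 100 ppb, with 4.21 and 4.11, were not above the control tags, against 6.57 and 5.99 at 10 ppb, at least a 2.84-fold lower level.

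Carboxypeptidase A5, cpa5, which marks mast cells in zebrafish and was also listed with the pancreas, had 5.47 and 5.39 at 100 ppb, against 7.97 and 7.05 at 10 ppb. Its 0 ppb arrays lay at 7.92 and 8.00 and its 40 ppb arrays at 6.31 and 6.50, an order the other pancreas genes did not have. Among 11 leukocyte genes 3 fell, none rose, and the median was -0.20: cpa5 (-2.08 ± 0.24), the granulin gene grna.1 (-1.37), and marco, a scavenger receptor gene of macrophages, which was at least 1.92-fold lower. For grna.1 the 10 ppb arrays were the highest, with 6.95 and 6.81 at 100 ppb, against 8.32 and 8.19 at 10 ppb. Other leukocyte genes did not pass, such as the actin-binding lcp1 (-0.11), coro1a (0.03) and the lysozyme gene lyz (-0.39). The summed intensity of 15 leukocyte markers was 541 and 578 at 100 ppb, against 1029 and 945 at 10 ppb. Both cpa5 and grna.1 are in this sum and make up most of its fall, so it does not describe the markers in general. In the deposited scaling no leukocyte gene passed. The part of leukocytes in these calls was not tested, and the call of marco ended without replicate 2 of the 10 ppb pool (-0.90) and without either 100 ppb array.

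Genes that rose came from many functions. The 100 ppb arrays stood apart in ptgdsb.1, for a lipocalin-type prostaglandin D synthase, with 6.82 and 6.59 at 100 ppb, against 4.98 and 5.23 at 10 ppb. The 0 and 40 ppb arrays lay between 5.06 and 5.35, and the difference was 1.6 ± 0.17 (adjusted p = 0.000829). It was the 1 of 6 prostaglandin genes that rose, its neighbour by name ptgdsb.2 having 5.89 and 5.81 at 100 ppb, against 5.12 and 5.05 at 10 ppb without passing. The cyclooxygenase gene ptgs1 did not pass (0.12).

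The tryptophan hydroxylase gene tph1a, for the rate-limiting step of serotonin synthesis, had 8.31 and 8.42 at 100 ppb, against 6.87 and 7.1 at 10 ppb. Its 0 ppb arrays were at 7.94 and 7.73 and its 40 ppb arrays at 7.17 and 7.07, so both exposed pools below 100 ppb were under the control. A second probe set had a difference of 0.86 (adjusted p = 0.0338), under the minimum. The keratin gene krt5 rose by 1.41, with 5.81 and 6.23 at 100 ppb, against 4.58 and 4.63 at 10 ppb, opposite in sign to krt8 and the other keratins that fell. The calcium-binding gene s100u rose by 1.25, with 6.62 and 6.67 at 100 ppb, against 5.51 and 5.29 at 10 ppb. Without either 100 ppb array s100u did not pass (adjusted p up to 0.085).

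The acetylcholine receptor subunit gene chrnb3b, 1 of 6 neural markers, was at least 2.72-fold higher, with 6.04 and 6.21 at 100 ppb, against 4.4 and 4.11 at 10 ppb. Its 0 ppb arrays had 5.68 and 6.14 and its 40 ppb arrays 5.24 and 4.55. The 10 ppb arrays were thus the lowest, and the 100 ppb arrays lay near the 0 ppb level. The sialyltransferase gene st8sia7.1 rose by 1.75 in 1 probe set, while the brighter probe set had a difference of 0.00. The adhesion gene epcam likewise rose by 1.67 in a dim probe set and had 12.32 and 12.37 at 100 ppb, against 12.19 and 12.47 at 10 ppb, in its brightest. Also passing as higher were lratd1 (1.53), adprm, for an ADP-ribose and CDP-alcohol hydrolase (1.51), ppp1r3ca, a glycogen-targeting subunit of protein phosphatase (1.33), and dachb, a dachshund transcription cofactor (1.2). The calls of lratd1 and ppp1r3ca ended without replicate 1 of the 100 ppb pool (adjusted p = 0.121 and 0.0611) and that of epcam without its replicate 2 (0.0767). In the deposited scaling ptgdsb.1 and chrnb3b passed, while tph1a, krt5, s100u, st8sia7.1, epcam, lratd1, adprm, ppp1r3ca and dachb did not. With a pseudocount of 64 the differences of ptgdsb.1 (0.89) and chrnb3b (0.82) were under the minimum of 1.

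Genes of the ovary's own functions did not pass. Counts at an unadjusted p under 0.05 are to be read beside 1644 of all 9301 probe sets tested (limma). None of 12 steroid synthesis genes passed (limma, 1 at an unadjusted p under 0.05, median -0.07). The aromatase gene cyp19a1a, which makes estradiol, had 6.17 and 6.05 at 100 ppb, against 5.65 and 6.04 at 10 ppb. For the side-chain cleavage gene cyp11a1.1 the levels were 8.88 and 8.99 at 100 ppb, against 9.0 and 9.66 at 10 ppb, and for cyp17a1 they were 8.82 and 8.83 at 100 ppb, against 8.77 and 9.25 at 10 ppb. None of 7 follicle cell markers (3 at an unadjusted p under 0.05, median 0.27) and none of 26 oocyte and germline genes (6 at an unadjusted p under 0.05, median 0.12) passed. The summed intensity of the germline genes was 48277 and 48232 at 100 ppb, against 44096 and 45527 at 10 ppb, and that of the follicle markers 1574 and 1560 at 100 ppb, against 1491 and 2018 at 10 ppb.

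Housekeeping groups stayed near the median of all probe sets, with no passing gene under limma. Over all 9301 probe sets tested, 1644 had an unadjusted p under 0.05, which is the background for the counts given here. The groups and counts follow. The groups were 81 oxidative phosphorylation genes (median -0.03, 9 at an unadjusted p under 0.05), 76 cytosolic ribosomal proteins (-0.06, 8), 48 translation factors (-0.03, 8), 44 proteasome subunits (-0.03, 6), 31 chaperones (-0.04, 5) and 31 cell cycle genes (0.08, 3). The replication clamp gene pcna had 11.13 and 11.28 at 100 ppb, against 11.02 and 11.13 at 10 ppb. Glycolysis had a median of -0.21 over 20 genes, of which 9 had an unadjusted p under 0.05 and none passed. The glyceraldehyde phosphate dehydrogenase gene gapdhs had 7.43 and 7.31 at 100 ppb, against 8.26 and 8.05 at 10 ppb, a difference of -0.79 with an adjusted p of 0.00846 that was under the minimum.

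No gene passed among 10 of retinoid metabolism (median 0.26, 6 at an unadjusted p under 0.05), 10 of sterol synthesis (-0.15, 2), 12 cathepsins (-0.16, 4), 20 of actin binding and smooth muscle (-0.15, 6), 8 of glycan transfer (0.01, 2) and 9 growth factors (0.16, 3). The smooth muscle actin gene acta2 had 6.77 and 6.75 at 100 ppb, against 7.21 and 7.54 at 10 ppb (-0.62, adjusted p = 0.0441), under the minimum. The same held for markers of intestinal epithelium (1 tested, 1 at an unadjusted p under 0.05), endothelium and adipose tissue (3 tested, 2) and skeletal muscle (3 tested, 1). Among the muscle markers a second probe set of the actin gene actc1b rose by 1.06, while the brightest had a difference of 0.52.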

How the data were processed

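For every probe set the deposited table gives linear intensities, 1 an array. They are MAS5 signals per the submitters' processing notes, whose version and scaling target were not stated. The authors also deposited instrument files, which per the file headers hold scanner and fluidics settings and no expression. Of their values only the scan day of each array was used. The 2% trimmed mean intensity was 96.1 to 211, so the arrays shared no scale. Of 15617 probe sets, 115 controls were left out. The intensities were log2(intensity + 16) transformed and quantile normalised over 8 arrays, and probe sets above the 40th percentile of the mean (5.11) were tested, 9301 in all, 7566 of them with 1 gene symbol. The platform annotation gave several symbols to 135 and none to 4572 of 15502, and no gene was named from these.

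All 4 pools were fitted with limma 3.58.1 (R 4.3.3), using lmFit and eBayes with trend = TRUE, and p-values were adjusted over all tested by the Benjamini-Hochberg method. The SE is that of the fitted difference, with 4 residual degrees of freedom and 10.5 with the prior. The fit was tested on simulated data. A probe set not above the 95th percentile of 17 control tag probe sets (5.92 to 20.5 in intensity, with 63.6% to 79.5% of probe sets above it) on either array of a pool gives a bound, which sets the brighter pool's mean against the mean of the dim pool after raising each dim value to the lowest value above that percentile. The number of arrays limits the precision. A list takes the brightest probe set of each gene.

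Genes named were drawn from the 15 largest passing differences each way with 1 symbol, placeholder symbols passed over, and for each of 38 lists up to 4 passing members and the first member, plus vitellogenins and estrogen receptors. Members named beyond this, to complete a count, were chosen after their values were seen. Comparison, lists and rule were chosen with earlier results of these data known. Alternatives changed the scaling, pseudocount, filter, minimum difference, samples, blocks and weights, or left out 1 array. Counts of lists without either 10 ppb array, in other scalings and with other filters were added after seeing the data. So was a count of the main calls among probe sets whose 10 ppb arrays differ by less than 1. No sequence or genome was used, so no promoter motif and no coordinates are given.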

Additional observations from a re-analysis of the deposited data

How the results depend on the processing

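No named call changed direction under any alternative, and the number that ended was largest in the deposited scaling, 29 of 52. The counts of probe sets passing moved with several choices. Given as all, higher and lower at 100 ppb, they were 61, 11 and 50 in the deposited scaling, 74, 17 and 57 with a pseudocount of 64, 62, 24 and 38 with a filter at the 60th percentile (6201 tested), 70, 27 and 43 in a fit of the 4 arrays of both pools, 332, 136 and 196 with no minimum difference, and 59, 6 and 53 with a minimum of 2. Scan day as a block, which takes the 10 ppb level from replicate 2 alone, gave 236, with 103 higher. Replicate 2 of each pool alone, the pair that shared a day, gave 257 at a difference of at least 1, with no test. Of these 115 were higher. With all 4 pairs of arrays at least 1 apart, 26 were higher. Among probe sets whose 10 ppb arrays differ by less than 1, chosen after seeing the data, 83 had passed in the main fit and 42 were lower.

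Leaving out 1 array gave 68 to 224 passing probe sets, 25 to 99 higher and 43 to 139 lower. Without replicate 1 of the 10 ppb pool 224 passed and 99 were higher. Without replicates 1 and 2 of the 100 ppb pool, 71 and 68 passed, 26 and 25 of them higher and 45 and 43 lower. Of the 30 genes with the largest differences, 17 to 28 passed with 1 array left out, 18 and 17 of them without replicates 1 and 2 of the 100 ppb pool. They were 17 in the deposited scaling, 10 of the 11 tested with the 60th percentile filter, 19 with 4 arrays and 15 with a minimum of 2. Of the 30, 12 had 10 ppb arrays less than 1 apart. Their calls are those of the main fit, so this count is a description and no test. Scaling to a common trimmed mean (149), a pseudocount of 1 (203), no filter (143), array weights (158) and no variance trend (136) stayed within 1.5 times the count of 148. The cause of these moves was not tested. The gaps between replicates of the 100 and 10 ppb pools correlated at r = 0.046 over 9301 probe sets. Replicates 1 of these pools were scanned on different days, so this value does not show whether arrays with the same number are alike. A replicate block gave 158 passing probe sets. Probe sets near the control tags limit what can be measured, and 13 of the lower and 3 of the higher probe sets have only a bound.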

Other observations

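Some values were chosen after being seen. An unnamed probe set had 4.21 and 4.26 at 100 ppb, not above the control tags, against 9.53 and 7.82 at 10 ppb. It was at 11.13 and 10.81 at 0 ppb and 11.06 and 10.80 at 40 ppb, and was at least 15-fold lower at 100 ppb than at 10 ppb. Its identifier differs only in the ending from that of the brightest epcam probe set, whose difference was 0.01. Whether both measure the same transcript was not tested. The rhotekin gene rtkn2 had 7.04 and 6.93 at 100 ppb, against 8.39 and 9.15 at 10 ppb, while the 0 and 40 ppb arrays lay between 8.50 and 8.89.

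Large gaps between the arrays of 1 pool were also found in ddit4 and cdc25b. The stress-induced inhibitor gene of TOR signalling ddit4 had 9.45 and 8.13 at 100 ppb, against 9.42 and 5.59 at 10 ppb, and replicate 1 was the higher array in all 4 pools, with 8.05 and 5.97 at 0 ppb and 8.90 and 7.01 at 40 ppb. A probe set of the cell division phosphatase gene cdc25b had 7.68 and 8.82 at 100 ppb, against 7.25 and 10.04 at 10 ppb, and there replicate 2 was the higher in all 4 pools. Neither gene passed.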
